A study of Danio rerio with 3 samples.

Results

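The data described here are the transcript levels of wild-type zebrafish embryos at 36 hpf (hours post fertilization), the wild-type sample of a study of the histone methyltransferase gene setd2. The sample was chosen by its label and is 1 of 3 samples in the series, which holds 1 sample per genotype. It is labelled strain Tubingen, genotype wild type, age 36 hpf and whole body, and the study describes its embryos as littermates of the mutants. The methods for keeping embryos in this study name egg water with methylene blue and phenylthiourea (PTU), which blocks melanin formation, and do not say whether the embryos sequenced here received PTU. How many embryos were pooled is not given in the sources used here. No genotypes were compared. The report is about abundance across 32520 genes within the single library. With no replicate, no p-value can be given, and the 95% intervals (exact Poisson for counts and FPKM, exact Clopper-Pearson for shares) cover counting error only.

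At this age the zebrafish embryo is still forming its organs and lives on its yolk. The trunk muscle contracts, the heart beats, embryonic red cells circulate and, in untreated embryos, pigment cells fill with pigment. The yolk syncytial layer, a multinucleate layer around the yolk, packs yolk lipid into lipoproteins, and the hatching gland stores the proteases that will open the egg envelope. Maternal transcripts loaded into the egg have mostly been cleared by then. Feeding, vision and digestion begin only in the larva, so that many genes of the gut, the pancreas and the photoreceptors come on later. Because RNA of the whole body was sequenced, fewer cells of a type and less RNA per cell cannot be told apart.

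The counts of the wild-type library summed to 13340950. Of the 32520 genes, 19071 (58.6%) had at least 10 counts and are called expressed here, 4925 had 1 to 9 counts and 8524 (26.2%) had 0 counts. The genes at 0 were short, with a median exonic length of 540 bases, against 2475 bases in the expressed genes. Among them were 2570 entries with an Rfam number as name and 247 named as miRNA genes. Shares over all genes below include these small RNA entries. Levels of different genes are given below as FPKM, the count per kilobase of exonic length and per 1000000 counts of the library. The exonic length is a value per gene, and whether it equals the length of the transcripts present was not checked. Where it is longer, the FPKM is too low. Counts are given beside them for the precision, and a ratio or order of counts also moves with gene length. The median over all genes was 1.15 FPKM. Among expressed genes the median was 5.16 FPKM, with 5% of them at or under 0.49 FPKM and 5% at or above 63.2 FPKM. At least 10 FPKM was reached by 6114 genes, at least 100 FPKM by 574 genes and at least 1000 FPKM by 64 genes. The 100 genes of highest count took 25.2% of all counts, and 692 genes took 50% of them. At this depth the interval of a gene with 10 counts ran from 4.795 to 18.4 counts, and that of a gene with 1000 counts from 939 to 1064 counts. A count of 0 is read here as up to 3 counts, which is 0.225 FPKM for a gene of 1000 bases. This floor is a fixed setting and not the end of a Poisson interval.

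**Figure D1:**
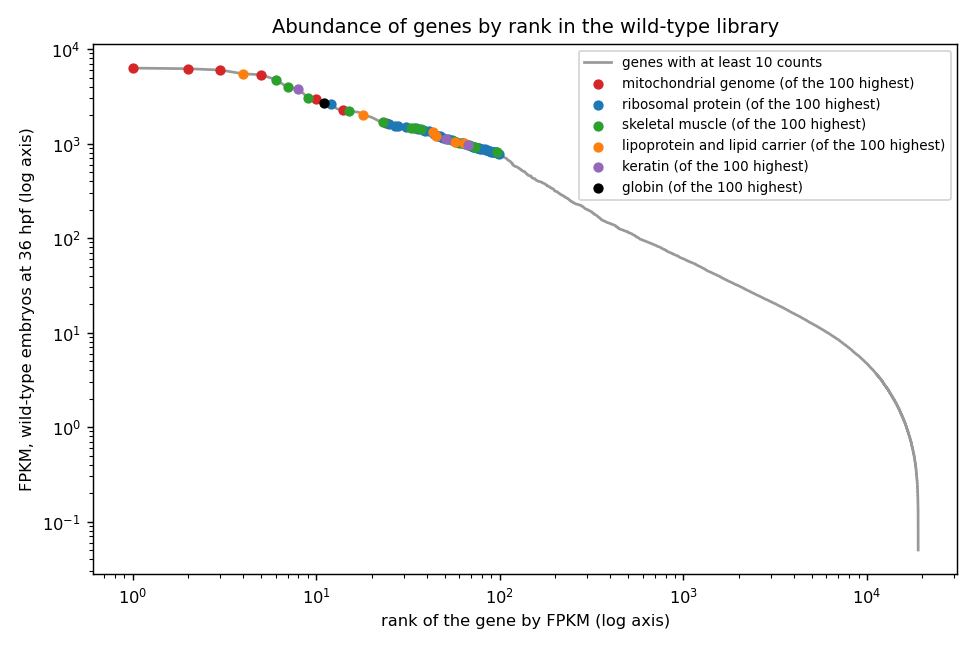
FPKM of each gene of at least 200 bases with at least 10 counts in wild-type embryos at 36 hpf, against its rank, on log axes, with 6 classes of the 100 highest genes coloured. Mitochondrial, muscle, lipoprotein and keratin genes hold 10 of the first 10 ranks, and ribosomal protein genes crowd the ranks from 12 to 99.

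The first 11 ranks by FPKM were held by the mitochondrial genome and by genes of skeletal muscle, lipoproteins, keratins and embryonic globins. By FPKM the first was mt-co1, a subunit of cytochrome c oxidase, at 6293 FPKM (interval 6259 to 6327, 130208 counts). An entry of the mitochondrial genome of 1683 bases without a gene symbol followed at 6199 FPKM and had the highest count of all, 139191. The mitochondrial ribosomal RNA genes mt-rnr1 and mt-rnr2 were not matched by symbol, and this entry may be ribosomal RNA and not mRNA. The next were mt-co2 at 6004 FPKM, apoa1a at 5472 FPKM and mt-co3 at 5351 FPKM. The gene apoa1a encodes apolipoprotein A-I, the main protein of high-density lipoprotein. The muscle genes actc1b, an actin, pvalb1, the calcium buffer parvalbumin, and mylpfa, a fast myosin light chain, stood at 4757, 3935 and 3059 FPKM. Between them came krt4, a keratin of the outer skin layer, at 3786 FPKM. The most abundant globin, hbae3, ranked at 11 with 2683 FPKM.

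The following ranks mixed genes of the same kinds with genes of every cell. The mitochondrial genes mt-cyb, mt-atp6 and mt-nd1 had 2972, 2252 and 1660 FPKM. Every growing cell uses rplp0, a stalk protein of the large ribosomal subunit, at 2613 FPKM, slc25a5, the exchanger of ADP and ATP of the inner mitochondrial membrane, at 2328 FPKM, and actb2, a beta-actin, at 2148 FPKM. The muscle genes pvalb2 and ckmb, a creatine kinase, reached 2188 and 1701 FPKM. The apolipoprotein gene apoa2 reached 2012 FPKM and bhmt, which makes methionine from homocysteine and betaine, 2175 FPKM. The nuclear protein genes ptmab, a prothymosin, and hmgn2, which binds nucleosomes, had 1954 and 1899 FPKM. The growth-associated gene tpt1 had 1813 FPKM and si:ch211-222l21.1, which has only a clone name, 1728 FPKM. By count alone genes of long exonic length moved up. The elongation factor gene eef1a1l1 (119514 counts), apobb.1 (101435 counts), which encodes the large structural apolipoprotein B, and the chaperone genes hspa8 (81076 counts) and hsp90ab1 (64784 counts) were among the first 10 by count and outside the first 25 by FPKM.

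Sorted by kind, 39 of the 100 genes of highest FPKM encode ribosomal proteins, with levels between 770 and 2613 FPKM. A further 13 are skeletal muscle genes, 9 are entries of the mitochondrial genome and 7 encode chromatin proteins. Apolipoproteins and lipid carriers account for 6, and keratins for 3. The 39 ribosomal protein genes held 4.07% of all counts and 9.35% of the summed FPKM. The 13 muscle genes held 3.58% of the counts and the 9 mitochondrial entries 3.74%, which includes 1.04% for the entry without a symbol. The single globin held 0.211%. The kinds were set from gene symbols with these ranks known.

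Tissues were read through 34 gene lists with 1035 entries, of which 1000 were matched in the table and 35 were not analysed here. Of these lists, 23 hold genes of tissues or functions present at this stage. The other 11, called maternal and late for short, hold maternal, early zygotic or late genes. In 28 of the 34 lists at least 50% of the matched members were expressed, against 58.6% over all genes. The largest summed levels were those of the 13 protein-coding mitochondrial genes (28329 FPKM), fast skeletal muscle (28179 FPKM) and translation (22197 FPKM). Then came the yolk syncytial lipoprotein and plasma list (16043 FPKM), epidermis and keratin (9576 FPKM) and the cytoskeleton (8246 FPKM). Sums depend on how many genes a list holds, so the medians are given below as well.

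The genes of energy and protein supply had the highest medians. All 13 protein-coding genes of the mitochondrial genome were expressed, with a median of 1044 FPKM and a range from 106 FPKM for mt-atp8 to 6293 FPKM for mt-co1. Levels of mt-nd6, which lies on the other strand, and of mt-atp8, which overlaps mt-atp6, depend on how reads were assigned, which is not known. All 25 translation genes were expressed, with a median of 812 FPKM. Beside rplp0 the highest were eef2b at 1611 FPKM and eef1a1l1 at 1528 FPKM, both elongation factors. In the cytoskeleton list 21 of 22 genes were expressed, led by actb2, actb1 (1357 FPKM) and the alpha-tubulin gene tuba8l4 (878 FPKM).

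Skeletal muscle was the most abundant tissue programme by summed FPKM. All 44 genes of the fast muscle list were expressed, 21 of them at 100 FPKM or more, and their median was 96.2 FPKM. The highest were actc1b, pvalb1 and mylpfa, given above, and together they made up 41.7% of the list's sum. Calcium handling was represented by atp2a1, the calcium pump of the sarcoplasmic reticulum, at 567 FPKM. The fast troponin genes tnnc2 and tnnt3a, subunits of the calcium switch of the thin filament, had 1020 and 675 FPKM. At the low end were the giant sarcomere genes. The titin genes ttn.1 and ttn.2 had 1326 and 1429 counts, but 1.12 and 1.09 FPKM, and nebulin (neb) had 1371 counts and 5.15 FPKM.

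Fast isoforms outweighed slow isoforms of the myosin heavy chain, the motor of the thick filament. The genes myhz1.1, myhz1.2, myhz1.3 and myhz2 had 35729 counts and 447 FPKM in sum, and the slow genes smyhc1, smyhc2 and smyhc3 had 4464 counts and 54.5 FPKM. The ratio was 8.201 by FPKM and 8.004 by counts (counting interval 7.76 to 8.26). Within the slow genes nearly all of the level was smyhc1, at 53.8 FPKM, whereas smyhc2 and smyhc3 had 0.51 and 0.15 FPKM. Neighbouring copies of the myosin genes are similar in sequence, and their single values are uncertain. The slow muscle and myogenic regulator list, 20 of 21 expressed, was led by myl10 (257 FPKM), tnnc1b (177 FPKM) and smyhc1. Its transcription factors were much lower. The determination factors myod1 and myf5 had 14.6 and 5.77 FPKM, and myog, which drives differentiation, 1.57 FPKM. The genes mymk and mymx, which fuse myoblasts, had 0.74 and 1.52 FPKM.

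The heart list was low in comparison, with 21 of 23 genes expressed and a median of 4.2 FPKM. Its highest members were cmlc1, a cardiac myosin light chain gene, at 34.8 FPKM, smyd1b, a methyltransferase gene needed for sarcomere assembly, at 31.9 FPKM, and myl7, a myosin light chain gene of the whole heart, at 30.3 FPKM (interval 27.8 to 32.9, 540 counts). The gene smyd1b is also used by skeletal muscle. Natriuretic peptide nppa stood at 14.9 FPKM and the chamber regulator hand2 at 17.5 FPKM. The pacemaker channel gene hcn4 had 2 counts.

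The second large tissue programme was the lipoprotein supply. Of 48 genes in the yolk syncytial and plasma list 43 were expressed, with a median of 57.3 FPKM. The highest were apoa1a, apoa2 and fabp1b.1, a fatty acid binding protein gene, at 1331 FPKM. All 15 apolipoprotein genes examined were expressed, from 8.51 FPKM for apoa4b.3 to 5472 FPKM for apoa1a, and together they held 2.55% of all counts. Apolipoprotein B was carried mainly by apobb.1 at 591 FPKM, with apoba at 75.6 FPKM and apobb.2 at 28.4 FPKM. Mttp, which loads lipid onto apolipoprotein B, was at 7.87 FPKM. Plasma proteins that the adult liver makes were present too. Transferrin (tfa) had 239 FPKM, and the fibrinogen chain genes fga, fgb and fgg, whose products form clots, were close to each other at 69.7, 64.3 and 89.3 FPKM. Prothrombin (f2) had 47.8 FPKM. Transthyretin (ttr), a carrier of thyroid hormone, had 1 count, and gc, the vitamin D binding protein, 3 counts.

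Skin genes reached high levels with a wide spread. In the epidermis and keratin list 45 of 49 genes were expressed, with a median of 21.8 FPKM, and krt4 alone made up 39.5% of the sum. The next were the keratins cyt1 and cyt1l at 1131 and 976 FPKM. The basal-layer factor tp63 was at 21.0 FPKM and the cadherin of epithelial junctions, cdh1, at 23.3 FPKM. The keratin entries krt93, krt95 and krt98 had 0 or 1 counts. The ionocytes of the skin, which take up salts from water, showed 20 of 22 genes expressed. The listed sodium pump subunits atp1a1a.1 and atp1a1a.2 had 94.0 and 62.4 FPKM and the proton pump subunit atp6v1aa 53.3 FPKM. These 3 genes made up 56.5% of the list's sum, and how much of their RNA came from ionocytes was not measured. The factor foxi3a, which specifies ionocytes, had 5.51 FPKM, and the ammonia channels rhcga, rhcgb and rhcgl1 had 0.52 FPKM or less.

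The hatching gland list held 13 expressed genes of 14. It was led by the hatching enzyme genes he1a (794 FPKM, interval 780 to 809) and he1b (205 FPKM), near-identical proteases whose split is uncertain. The third was xbp1, a regulator of the secretory pathway that other secretory cells use as well, at 145 FPKM. The gene of a further enzyme, hce2l1, had 0 counts, and he1.3 had 12 counts.

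Embryonic blood was represented by all 34 matched erythroid genes, with a median of 17.1 FPKM. The 10 embryonic globin genes summed to 44208 counts, and 51.8% of the list's summed FPKM was hbae3. The beta-type gene hbbe1.3 followed at 757 FPKM and hbbe3 at 391 FPKM. Embryonic alpha-type globins summed to 2868 FPKM and beta-type globins to 1813 FPKM, and reads that fit several of these clustered copies may have been split between them. The anion exchanger of the red cell membrane, slc4a1a, had 113 FPKM, and alas2, the first enzyme of heme synthesis, 69.8 FPKM. The erythroid transcription factors gata1a and klf1 were at 3.54 and 3.68 FPKM.

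White cells and vessels were low but well covered. In the myeloid list 31 of 33 genes were expressed, with a median of 2.60 FPKM. The highest were cebpb, a transcription factor gene that is not particular to these cells, at 22.8 FPKM, the neutrophil gene npsn at 20.0 FPKM and the chemokine receptor gene cxcr4b at 17.4 FPKM. Granule genes lyz (lysozyme) and mpx (myeloperoxidase) had 14.9 and 10.5 FPKM. The macrophage gene mpeg1.1, which encodes a pore-forming protein, had 3.53 FPKM. All 32 endothelial genes were expressed, with a median of 5.23 FPKM. The first were notch1b at 33.9 FPKM, the arterial ligand efnb2a at 23.8 FPKM and plvapb, a protein of the diaphragms of vessel openings, at 22.3 FPKM. Both notch1b and efnb2a are also used outside vessels. The receptor gene kdrl, which senses vascular endothelial growth factor, had 10.7 FPKM (interval 10.002 to 11.5) and the junction gene cdh5 7.43 FPKM. The genes lyve1b and stab2 of the same list had 4.76 and 5.41 FPKM.

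The nervous system was represented by its progenitors and by young neurons. All 41 progenitor and glia genes were expressed, with a median of 49.2 FPKM. The highest were hmga1a, a chromatin protein gene of many dividing cells, at 1085 FPKM, fabp7a, a fatty acid binding protein gene of radial glia, at 669 FPKM, and id1, an inhibitor of differentiation factors, at 430 FPKM. The progenitor factors sox3, sox19a and sox2 had 133, 102 and 42.6 FPKM. Of 54 neuron genes 49 were expressed, with a median of 13.7 FPKM. They were led by tubb5 (272 FPKM), a tubulin gene also counted in the cytoskeleton list, elavl3 (173 FPKM), an RNA-binding protein gene that marks young neurons, and stmn1b (152 FPKM), which destabilizes microtubules.

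Genes of the transmitter types were picked from the neuron list with their values known. Glutamate was represented by its vesicle transporters slc17a6b and slc17a6a at 10.1 and 4.54 FPKM, and GABA by its synthases gad2 and gad1b at 10.6 and 5.60 FPKM. Glycine and acetylcholine were represented by the transporters slc6a5 (5.52 FPKM) and slc18a3a (14.3 FPKM). The monoamine genes th, tph2 and dbh, which make dopamine, serotonin and noradrenaline, had 3.11, 1.21 and 1.05 FPKM. Among neuropeptide genes hcrt had 7 counts, avp 5 counts, gnrh3 3 counts, and oxt and kiss1 1 count each.

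Division genes were broadly present. All 34 members of the proliferation list were expressed, with a median of 53.2 FPKM. The replication clamp pcna had 459 FPKM, the chromatin protein gene hmgb2a 185 FPKM and rrm2, a subunit of the enzyme that makes deoxyribonucleotides, 173 FPKM. The mitotic genes cdk1, plk1 and mki67 had 94.2, 76.9 and 81.3 FPKM. The 6 genes of the replicative helicase, mcm2 to mcm7, ranged only from 44.0 FPKM (mcm2) to 73.5 FPKM (mcm7).

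Of 47 lens genes 34 were expressed and 11 had 0 to 2 counts, with a median of 5.13 FPKM. The highest were the crystallins crygm2d8, crygm2d13 and crygn2 at 137, 113 and 112 FPKM. Crystallins are the proteins that fill the lens fibres. The 10 listed copies of the crygm2d cluster were all expressed and had 6014 counts and 570 FPKM in sum, whereas the 3 alpha crystallin genes had 38 counts, 37 of them from cryaa, and 1.99 FPKM. The ratio was 287 by FPKM and 158 by counts (counting interval 115 to 224), and the copies of the cluster are near-identical, so that their single values are uncertain. The alpha crystallins cryaba and cryabb, the lens factor hsf4, lgsn, crybb2, cryba1a, crygm3, crygm5, crygs2, crygs3 and crygs4 had 0 to 2 counts.

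In the ear, lateral line and cilia list 29 of 30 genes were expressed, with a median of 2.07 FPKM. Its leaders were sparc (228 FPKM), a matrix protein gene of many tissues, pvalb9 (139 FPKM) and atoh1b (23.5 FPKM), a factor of hair cell precursors. The genes otomp, stm and oc90, which build the otoliths, had 21.4, 16.4 and 5.36 FPKM. Hair cell genes such as otofa, needed for transmitter release, and cdh23, a part of the tip link, had 0.93 and 0.41 FPKM.

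Notochord and cartilage genes were expressed in 34 of 37 cases, with a median of 7.51 FPKM. The highest were hapln1a at 80.4 FPKM, which links hyaluronan to proteoglycans, the fibrillar collagen gene col2a1b at 75.6 FPKM and matn4 at 73.4 FPKM. The cartilage factor sox9a was at 39.0 FPKM, and shha, the signal of the notochord and floor plate, at 6.98 FPKM. Aggrecan, the proteoglycan of mature cartilage, had 0.42 FPKM for acana and 0.05 FPKM for acanb.

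All 38 neural crest and pigment genes were expressed, with a median of 10.8 FPKM. The highest was gch2 at 340 FPKM, which starts pteridine synthesis in yellow and other pigment cells, followed by tyrp1b at 206 FPKM, a melanin synthesis enzyme, and the purine synthesis gene paics at 200 FPKM. The melanin genes dct, pmela and tyr, the last of which encodes the enzyme that PTU inhibits, had 141, 139 and 40.5 FPKM. The early crest factors foxd3 and sox10 were at 11.9 and 8.98 FPKM and the melanocyte factor mitfa at 9.46 FPKM.

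The kidney and the endocrine glands were near the bottom of the tissues. The pronephros, the larval kidney, had 23 of 24 genes expressed with a median of 2.31 FPKM. Its leaders were mecom (16.9 FPKM), rgn (14.1 FPKM) and podxl (11.8 FPKM), a surface protein of podocytes. The slit diaphragm gene nphs1 had 0.74 FPKM. Of 26 genes of the endocrine pancreas and pituitary 15 were expressed. Insulin (ins) had 106 counts, which is 16.4 FPKM (interval 13.4 to 19.8), the highest of the list. The others named by level were arxa at 12.3 FPKM, a factor that forebrain neurons also use, and the somatostatin gene sst2 at 7.79 FPKM. Prolactin (prl) was at 5.63 FPKM, while growth hormone (gh1), lhb, fshb, prl2 and smtla had 0 counts.

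Primordial germ cells gave the lowest median of the 23 lists, 0.18 FPKM, with 10 of 20 genes expressed. The highest was cxcr4b at 17.4 FPKM, which many other cells use. The germ cell genes nanos3, an inhibitor of translation, and gra had 35 and 34 counts, at 2.33 and 1.32 FPKM. The RNA helicase gene ddx4, also known as vasa, had 20 counts (0.52 FPKM). No counts were assigned to buc, the organizer of the oocyte's Balbiani body, or to h1m, the maternal linker histone, and dazl had 2 counts.

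**Figure D2:**
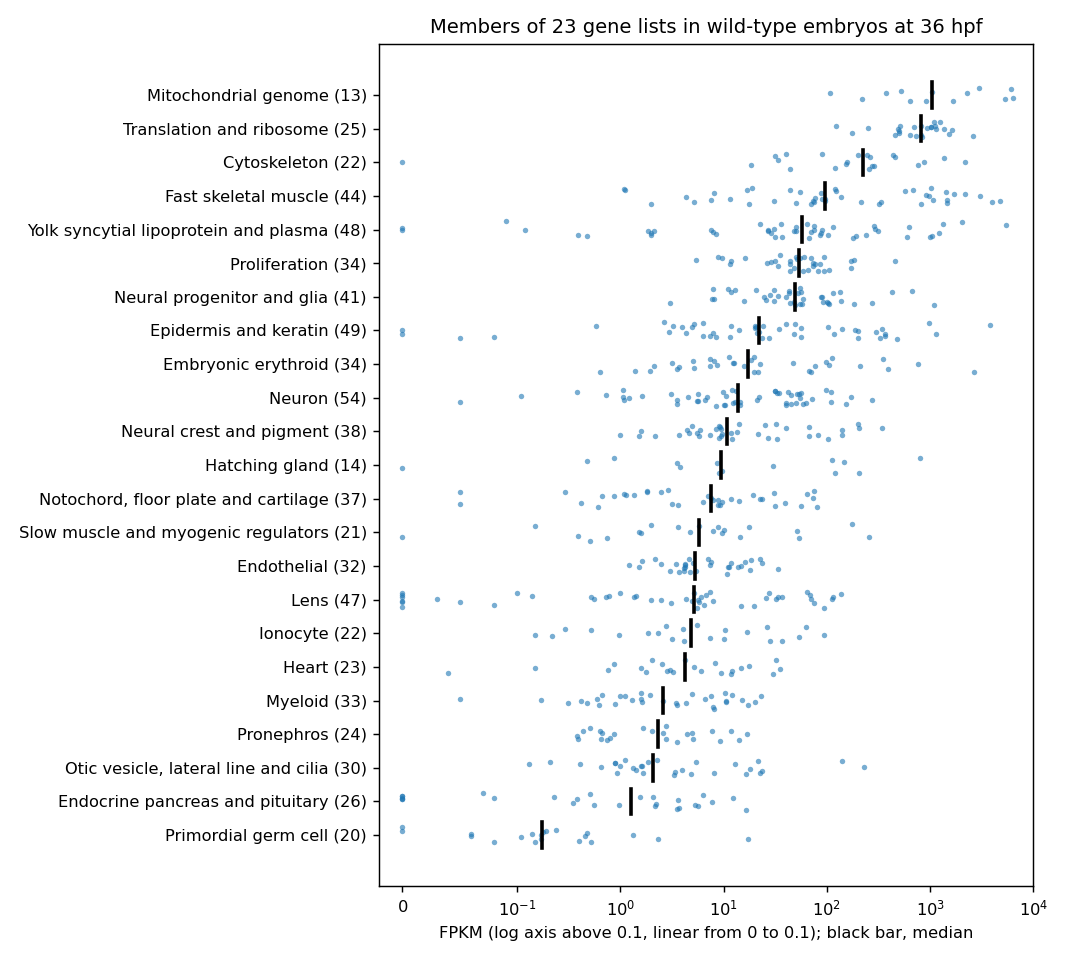
FPKM of every matched member of the 23 lists of tissues and functions in wild-type embryos at 36 hpf, 1 point per gene, with the median as a black bar and the number of genes in brackets. The axis is logarithmic above 0.1 FPKM and linear from 0 to 0.1. Medians run from 0.18 FPKM for primordial germ cells to 1044 FPKM for the mitochondrial genome.

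Transcription factors were set beside the remaining members of 13 tissue lists, with the members sorted into these classes after their values were known. Of the 90 factors in the 13 tissues, counted once per tissue, 86 were expressed, against 58.6% over all genes, which include small RNA entries. For skeletal muscle the fast list and the slow muscle and myogenic regulator list were joined, and all 11 factors came from the latter. These factors had a median of 7.90 FPKM and the 54 other genes, mainly of the contractile apparatus, 82.6 FPKM. In the erythroid list the medians were 5.50 FPKM for 6 factors and 20.7 FPKM for 28 other genes. In epidermis they were 6.28 FPKM and 25.8 FPKM, and in the lens 1.36 FPKM and 5.30 FPKM.

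Over the 13 tissues the other members had the higher median in 8 and the factors in 5, which were the retina, the exocrine pancreas, the pronephros, the endocrine list and, by 4.2 against 4.18 FPKM, the heart. In the retina list all 19 factors were expressed, with a median of 16.0 FPKM. The 24 other genes, mainly of phototransduction and the visual cycle, had a median of 0.63 FPKM. The highest factors were otx2b (71.4 FPKM), neurod1 (39.8 FPKM) and atoh7 (29.4 FPKM), which starts the first retinal neurons. Without neurod1, which the neuron list also holds, the median of the factors was 15.75 FPKM. How much of the RNA of these factors came from the retina was not measured. The exocrine pancreas factor ptf1a had 224 counts and 21.0 FPKM (interval 18.4 to 24.0), and the 20 other genes, mainly digestive enzymes, had a median of 0.19 FPKM. Cells of the hindbrain and retina also use ptf1a. The other factor of that list, rbpjl, had 0 counts. In the pronephros 6 factors had a median of 4.66 FPKM and 18 other genes 0.83 FPKM. In the endocrine pancreas and pituitary 5 factors had 1.54 FPKM and 21 other genes 0.98 FPKM. The factors and the other members had medians of 4.64 and 5.41 FPKM in vessels, 1.95 and 3.04 FPKM in the myeloid list, 9.14 and 19.6 FPKM in the hatching gland, and 10.7 and 11.6 FPKM in the neural crest and pigment list. Without members that another list also holds, the order turned in the heart, myeloid and hatching gland lists.

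**Figure D3:**
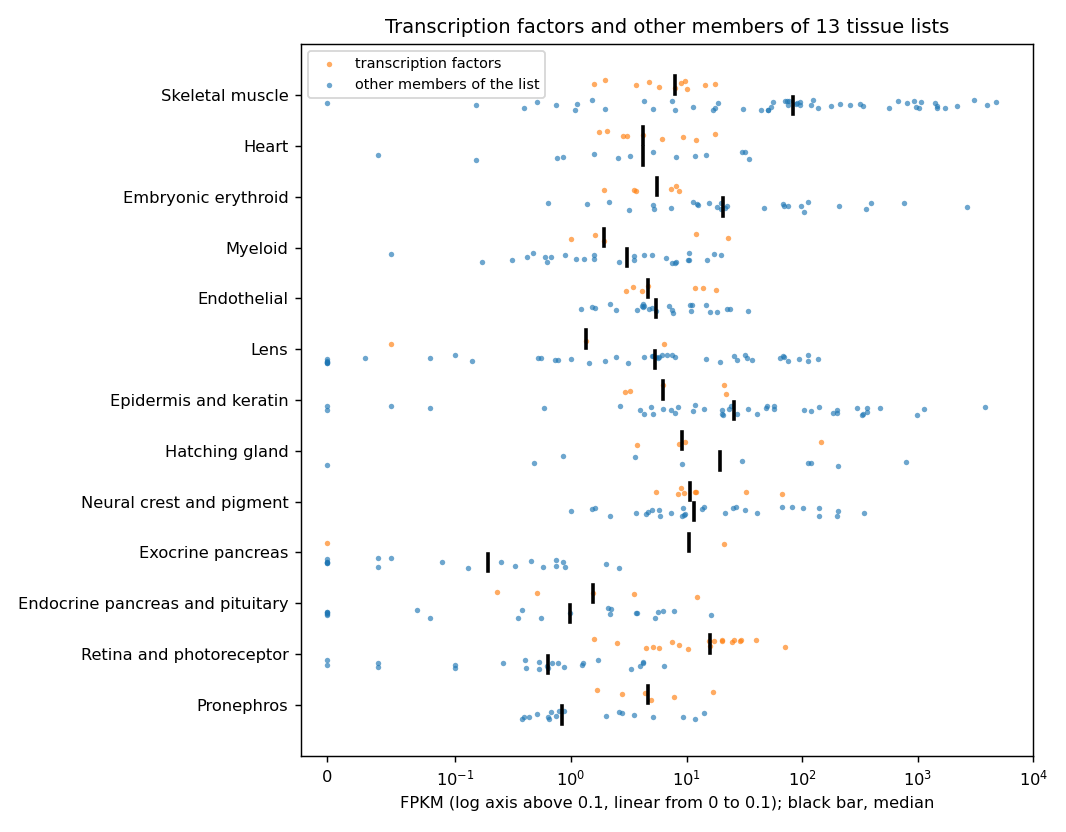
FPKM of transcription factors (orange) and of the other members (blue) of 13 tissue lists in wild-type embryos at 36 hpf, 1 point per gene, with medians as black bars, on an axis that is logarithmic above 0.1 FPKM. The blue median lies right of the orange median in skeletal muscle (82.6 against 7.90 FPKM) and left of it in the retina (0.63 against 16.0 FPKM).

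The 11 lists of maternal, early zygotic and late genes had 269 matched members. Of these, 76 had 0 to 2 counts, 52 had 3 to 9 counts and 141 were expressed. The share with 0 to 2 counts was 28.3%, against 33.3% over all genes of the table and 4.92% over the members of the other 23 lists. All genes of the table include small RNA entries, which the lists do not hold. A share near that of all genes is no property of the lists. The lists were chosen with earlier results of these data known, so the gap to the other 23 lists is no result either. What follows goes by gene.

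Of the egg's genes, 16 of 35 had 0 to 2 counts and 10 were expressed. With 0 counts were the egg coat genes zp2.2, zp2.3, zp3, zp3c and zpd, the maternal genes zar1l, buc and h1m, and foxr1, btg4 and org. The remaining ones with 1 or 2 counts were zp2.1, zp2.5, figla, which drives egg coat genes, and the oocyte growth factor genes bmp15 and gdf9. The 11 egg coat genes examined summed to 35 counts. The highest member was ccnb1 at 55.4 FPKM, a cyclin of all dividing cells, followed by alox12 (23.3 FPKM) and rtn4ip1 (3.94 FPKM). The zeros allow at most between 0.0717 and 0.252 FPKM by gene length.

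Among the genes of the blastula and gastrula 26 of 46 were expressed, and 13 had 0 to 2 counts. The genes mxtx1, mxtx2, sox32, sebox and wnt8a.1, which pattern the early germ layers and the yolk syncytial layer, the segmentation clock gene her1 and szl, a regulator of BMP signals, had 0 counts. The Nodal signals ndr1 and ndr2 had 2 counts and 1 count and their inhibitor lft1 1 count. The segmentation genes her7, mespaa and mespab had 2 counts each. The first activators of the zygotic genome differed, with nanog at 5 counts, pou5f3 at 31 counts (0.94 FPKM) and sox19b at 875 counts (25.6 FPKM). The last is also a gene of neural progenitors. The highest members were deltaC (34.1 FPKM), sox19b and cyp26a1 (20.0 FPKM), all of which have later roles.

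Blood of the adult type was close to absent. The adult globin genes hbaa1, hbaa2 and hbba1 had 0 counts and hbba2 had 1 count, whereas the embryonic globins had 44208 counts, and the sums were 0.12 FPKM for adult and 4681 FPKM for embryonic genes. The count ratio of 44208 to 1 has a counting interval from 7934 to 1.75e+06. Adaptive immunity showed 8 of 18 lymphoid genes expressed. The receptor genes ighz, cd79b, cd4-1 and cd8a had 0 counts. The recombinase genes rag1 and rag2, which assemble antigen receptors, had 20 and 12 counts, at 0.28 and 0.34 FPKM. The highest was tox at 32.3 FPKM, which the brain also uses, followed by tcf7 (4.07 FPKM) and pax5 (2.97 FPKM), both with roles outside lymphocytes.

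Gonad and meiosis genes had 11 of 26 members at 0 to 2 counts. These were dmc1, rec8a, rec8b and spo11 of meiotic recombination and cohesion, the aromatase genes cyp19a1a and cyp19a1b, the hormone genes amh and insl3, the receptor gene fshr, and the sperm genes tssk6 and izumo1. The synaptonemal complex genes sycp1, sycp2 and sycp3 had 16, 7 and 3 counts. The highest entries were spaca4l at 20.6 FPKM, the vitamin A transporter gene stra6 at 9.88 FPKM and the steroid enzyme gene cyp17a1 at 5.89 FPKM. The first of these is the same entry as lye of the epidermis list.

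Digestive enzyme genes were low. Of 22 exocrine pancreas genes 10 had 0 to 2 counts and 7 were expressed. With 0 counts were ctrb1, ctrl, ela3l, prss59.2, sycn.1 and rbpjl, and with 1 count prss59.1, cpa4, cel.1 and pla2g1b. The 18 genes of proteases, amylase and lipases summed to 159 counts and 9.07 FPKM. Among them trypsin (prss1) had 10 counts and the elastase ela2 24 counts. The highest product, cpa5 at 2.60 FPKM, is also used by mast cells, and the highest member was ptf1a.

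The liver and intestine list divided. In it 22 of 30 genes were expressed, led by fabp2 at 135 FPKM (interval 130 to 141), hao1, a glycolate oxidase gene, at 124 FPKM and the carboxylesterase ces2 at 121 FPKM. Only 3 of the 30 genes had 0 to 2 counts, and 5 more were too low to be called expressed. Fabp10a, the main fatty acid binding protein of the liver, had 1 count, as did cyp7a1, which starts bile acid synthesis, and fabp6, a bile acid carrier of the gut. The peptide transporter slc15a1b and the brush border peptidase anpepb had 3 counts each. Of 17 vitellogenin and adult liver genes 7 were expressed and 6 had 0 to 2 counts (vtg4, vtg5, vtg6, saa, igfals and hamp). The 7 vitellogenin genes, yolk precursors made by the adult female's liver, summed to 104 counts. The complement gene c9 was at 145 FPKM, haptoglobin (hp) at 69.9 FPKM and apoa1b, also in the lipoprotein list, at 1050 FPKM.

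In the retina list 36 of 43 genes were expressed, the 19 factors described above and 17 of the 24 other genes. The visual opsin genes, which encode the light receptors, had 27 counts in sum. The blue cone opsin opn1sw2 had 13 counts, rho of the rods 11, opn1mw1 2 and opn1lw1 1, and opn1sw1 and opn1mw2 had 0. Arrestin arr3b also had 2 counts. The opsin exorh of the pineal organ was higher than any of them, with 105 counts and 6.34 FPKM. Transducin of cones (gnat2) and rods (gnat1) had 30 and 18 counts.

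Myelin genes were split between copies and steps. Of 12 genes 8 were expressed. The proteolipid gene plp1a had 5810 counts and 87.7 FPKM, mbpb, a myelin basic protein gene, 668 counts and 17.9 FPKM, and cldn19 8.69 FPKM. The paralog mbpa had 0 counts, plp1b 8 counts and mag 9 counts. Among 16 bone genes 8 were expressed, and acp5a, an acid phosphatase gene listed for osteoclasts, was highest at 95.1 FPKM. It alone made up 79.3% of the list's sum, and which cells its RNA came from was not measured. The protease ctsk was next at 13.9 FPKM and phex at 5.10 FPKM. Osteocalcin (bglap) and mgp, proteins of mineralized matrix, had 1 count each and runx2a 0, whereas the osteoblast factor sp7 had 128 counts and 1.70 FPKM.

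**Figure D4:**
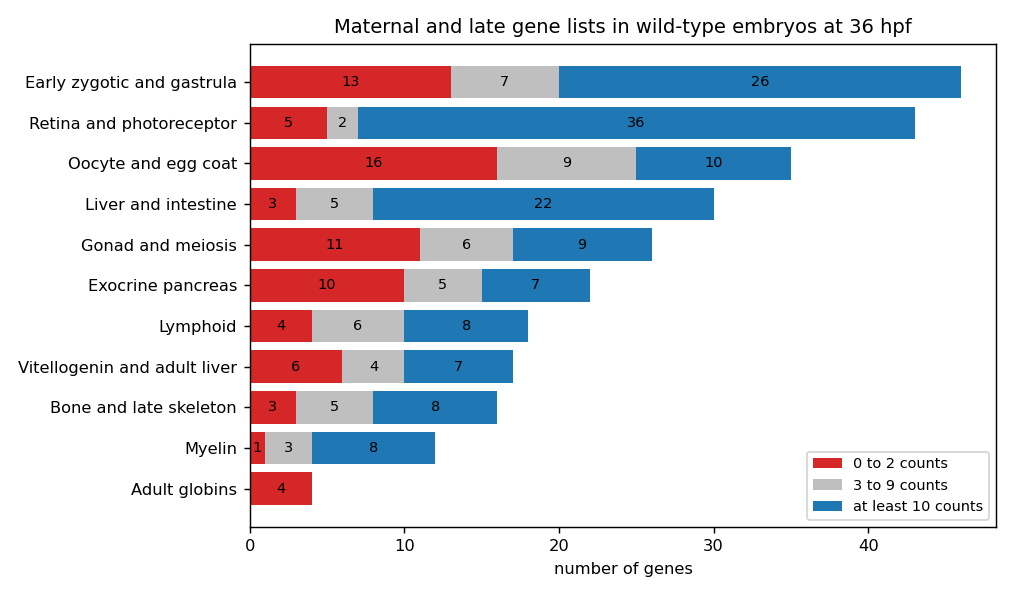
Number of genes with 0 to 2 counts (red), 3 to 9 counts (grey) and at least 10 counts (blue) in the 11 lists of maternal, early zygotic and late genes in wild-type embryos at 36 hpf. All 4 adult globin genes are red, as are 16 of 35 oocyte genes and 10 of 22 exocrine pancreas genes, while 36 of 43 retina genes are blue.

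The genes that the study uses as markers of organs, germ cells and loading spanned the whole range. The study stained older embryos for the organ markers fabp2, fabp10a, myl7, ins, prss1 and rag1. It measured the germ cell and gonad genes in adult testes, and stained embryos for ddx4 as well. The loading gene actb1 had 52310 counts and 1357 FPKM. The intestine marker fabp2 had 135 FPKM, the heart marker myl7 30.3 FPKM, the beta cell marker ins 16.4 FPKM and the vessel marker kdrl 10.7 FPKM. These are whole-body levels, and how much of each came from the organ that the gene marks was not measured. Levels were lower for prss1 of the exocrine pancreas at 0.86 FPKM (10 counts), rag1 of the thymus at 0.28 FPKM (20 counts) and fabp10a of the liver at 0.17 FPKM (1 count). In the germ line ddx4 had 0.52 FPKM (20 counts), dnd1 0.24 FPKM (7 counts), piwil1 0.19 FPKM (10 counts) and sycp3 0.18 FPKM (3 counts). The gonad genes cyp11c1 and amh had 0.48 FPKM (16 counts) and 0.02 FPKM (1 count). The 1 count of fabp10a lies on an exonic length of 433 bases, and its interval reaches 0.965 FPKM. The gene setd2 itself, which encodes the enzyme that trimethylates lysine 36 of histone H3, had 1348 counts and 8.96 FPKM (interval 8.49 to 9.45) in these wild-type embryos, above the median of the expressed genes.

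The teleost genome was duplicated in an ancestor of these fishes, and many genes are therefore kept as a pair of copies named a and b. Symbols of this form gave 2718 pairs, of which 2183 had a summed count of at least 100. The name alone does not show that a pair stems from that duplication, or that its genes are copies of each other. Pairs such as eif5a with eif5b and cyba with cybb were taken by name only, and copy here means either gene of a pair. In the median pair the higher copy held 73.7% of the summed FPKM. In 459 pairs, 21.0%, it held at least 90%, and in 797 pairs under 66.7%. Copy a was the higher in 1203 pairs of 2183. In 84 pairs the lower copy had 0 to 2 counts. Reads that fit both genes of a pair bear on these shares, and how they were treated is not known.

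Of the 802 pairs with a summed count of at least 1000, 7 had 0 counts in 1 copy. These were sumo2b over sumo2a (1565 counts against 0), encoding a small protein attached to other proteins, cycsb over cycsa (2927 against 0), cytochrome c, and ndufs8a over ndufs8b (2044 against 0), a subunit of respiratory complex I. The others were ctsba over ctsbb (1201 against 0), nid2a over nid2b (1603 against 0), mapkapk2a over mapkapk2b (1032 against 0) and chmp6b over chmp6a (1085 against 0). Against the floor of 3 counts and per length, sumo2b was 1387-fold higher than sumo2a and chmp6b 88.5-fold higher than chmp6a, without counting error. The table does not show whether a copy at 0 is a complete gene model, or whether reads shared by both copies were left out. Among the same 802 pairs the most equal by count were hcfc1a and hcfc1b (3383 and 3382), rrbp1a and rrbp1b (1627 and 1626), znf281a and znf281b (2302 and 2304), tlk1a and tlk1b (722 and 724) and suz12a and suz12b (910 and 907). Of these, suz12 belongs to the complex that methylates lysine 27 of histone H3. Per length they were less equal, with the higher copy at 51.1% (tlk1) to 54.6% (rrbp1) of the summed FPKM.

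Unequal pairs also held members of the tissue lists, chosen here with their values seen. The myelin genes plp1a and plp1b had 5810 and 8 counts, the desmin genes desma and desmb of the muscle cytoskeleton 1833 and 1, and the synaptic vesicle genes syt1a and syt1b 926 and 1. In other pairs copy b was the higher, as in mybpc2b and mybpc2a of the fast sarcomere (2255 and 3 counts), s100a10b and s100a10a (3492 and 8) and the glial glutamate transporters slc1a2b and slc1a2a (3137 and 4). In the apolipoprotein pair apoa1a and apoa1b both copies were high, with 71101 and 58851 counts. Per length they stood at 5472 and 1050 FPKM, on exonic lengths of 974 and 4200 bases.

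**Figure D5:**
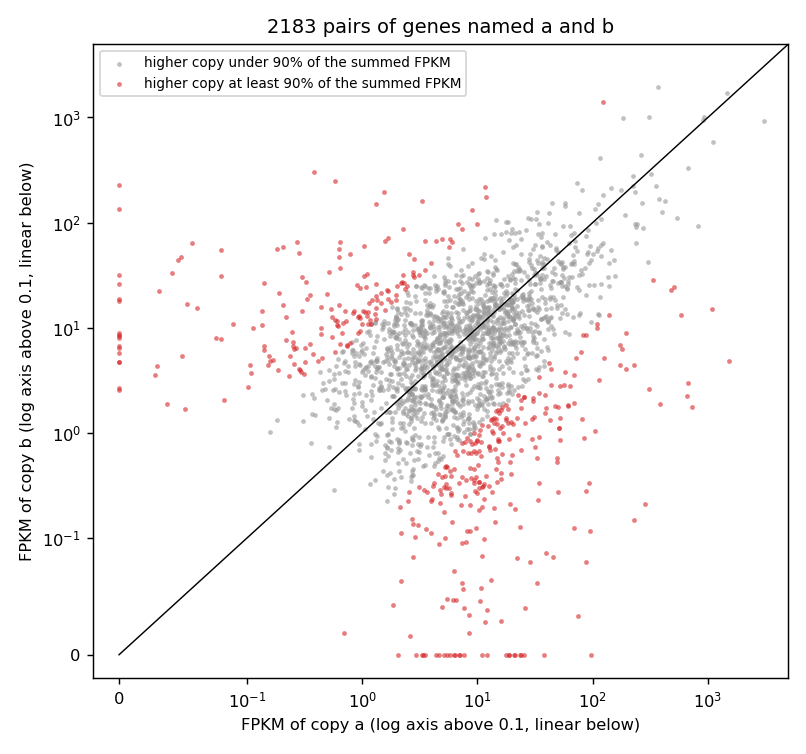
FPKM of copy a against copy b for the 2183 pairs with a summed count of at least 100 in wild-type embryos at 36 hpf, on axes that are logarithmic above 0.1 FPKM, with the line of equal levels. In the 459 red pairs the higher copy holds at least 90% of the summed FPKM, and points on an axis edge have 1 copy at 0.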

How the data were processed

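Whole embryos at 36 hpf were used, 1 sample per genotype. The authors deposited raw gene counts, FPKM and exonic gene sizes. The paper's methods name a stranded mRNA kit and mapping to GRCz10 with TopHat and Cufflinks, whereas the submitters' processing notes name HISAT2 2.0.2 and GRCz11 and the labels name other mRNA kits. The counting tool, the annotation release, the strand setting and the treatment of reads that fit several genes are not given in the sources used here. The deposited FPKM values could be rebuilt from counts, exonic sizes and the total of 13340950 counts to within 0.0050. Both deposited tables gave the same wild-type counts and FPKM (0 values differed). The 4 columns of other genotypes in the series table were not used.

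Members and lists were chosen with earlier results of these data known. Of 1035 list entries, 1000 were matched by symbol (8 through an alias and 14 through a symbol of the reference of gene names, which held 29201 of 32520 identifiers). Counts of identifiers that share a symbol were summed. Named genes are the 25 highest by FPKM and 10 highest by count of at least 200 bases, up to 3 leading members of each list, maternal and late members with 0 to 2 counts, the 5 most unequal and 5 most equal pairs by count among those with a summed count of at least 1000 (7 tied as most unequal are all given), the study's marker genes and setd2. Some genes that this rule takes are not reported here. Further genes were named with their values already seen. Alternatives were other count minimums, FPKM limits, units and pair filters. On simulated Poisson counts the coverage of the count intervals, the sums of list members and the recovery of raised genes were checked. Pair shares, shares of counts, ranks and the comparison of transcription factors were not tested in this way. Python 3.11.15, numpy 2.4.6, pandas 2.3.3, scipy 1.17.1 and matplotlib 3.10.9 were used.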

Additional observations from a re-analysis of the deposited data

How the results depend on the processing

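With a minimum of 3 counts 21683 genes were expressed, with 50 counts 14646 and with at least 1 FPKM 16756, each within 1.5 times of 19071. The share of the 100 leading genes was 23.2% without the mitochondrial genome and 34.4% of FPKM in place of counts. Of the maternal and late members 46 had 0 counts, 128 had 0 to 9 counts and, in an alternative added after the data were seen, 74 had 0 to 2 counts without members of other lists. Judged by counts, 23.8% of pairs had at least 90% in 1 copy. Of the 10 lists with the highest summed FPKM, 9 were also among the 10 highest by counts. Of 68 alternative counts of expressed list members, 13 in 8 lists moved by over 1.5 times, among them lymphoid, bone, exocrine pancreas, germ cell and oocyte genes. Without members that another list also holds, the median of other members minus that of transcription factors, in FPKM, reversed in heart (0.56), myeloid (-0.365) and hatching gland (-125, 1 factor left) lists. The promoter motif comparison was not run because no promoter sequences were at hand. No paired analysis was possible because there is 1 sample per genotype and genotypes were not compared. A single library gives no measure of the variation between embryos or preparations, and genes under 10 counts are not resolved at this depth.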

Other observations

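Among the 500 genes of highest FPKM, 27 have only a clone-based name in the table, and 5 of these have a gene symbol in the reference of gene names. The entry si:ch73-1a9.3 (1335 FPKM) is hmgn1b there and si:ch73-281n10.2 (492 FPKM) is hmgn1a, both of a family of nucleosome-binding proteins. Another entry is malat1 there, a long nuclear RNA, with 39447 counts and 395 FPKM. Those left without a symbol were led by si:ch211-222l21.1 (42521 counts, 1728 FPKM), zgc:174153 (554 FPKM) and si:ch211-288g17.3 (395 FPKM).

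Small RNA genes had few counts in this mRNA library. Of 2853 entries with an Rfam number as name 2570 had 0 counts, and all of them together had 940 counts. The 55 entries of the mir-430 family, which clears maternal transcripts in the early embryo, had 0 counts. Of 308 entries named as miRNA genes of zebrafish 247 had 0 counts and 8 had at least 10. The libraries were made from mRNA, and what these entries would show in a small RNA library was not measured. Of the 24 entries of the mitochondrial genome without a symbol, 22 had 0 counts and none of those was longer than 77 bases.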
